A study of Mus musculus with 6 samples.

Results

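Small nucleolar RNAs (snoRNAs) were read out of RNA-seq gene counts of mouse embryonic stem cells (mESCs). The members were the genes whose symbol in the deposited tables starts with Snord or Snora followed by a digit, which gave 114 of the 39017 genes, 76 of the box C/D class (Snord) and 38 of the box H/ACA class (Snora). The 6 libraries formed 3 groups of 2 replicates. Untreated and auxin-treated cells came from a V6.5 Pol II degron line, in which homozygous clonal cells carry an mAID-GFP tag on RPB1 (Polr2a), the largest subunit of RNA polymerase II (Pol II), and express OsTIR1 on doxycycline. Both of these groups received 1 μg/ml doxycycline for 12 h, and the auxin group received 500 μM indole-3-acetic acid, an auxin, for 6 h. The wild-type group was V6.5 mESCs with unmodified Pol II, whose records do not state whether doxycycline was given. All cells grew on irradiated mouse embryonic fibroblasts. The study calls replicates of its sequencing experiments biological in general, while the labels do not tie these libraries to separate cultures, so p-values measure the spread between these libraries, part of which may be technical.

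A snoRNA is a short RNA of the nucleolus that pairs with a target RNA and directs a protein complex to modify it. Box C/D snoRNAs, named after the short box C and box D motifs near their ends, guide ribose methylation with the methyltransferase Fbl, and box H/ACA snoRNAs guide pseudouridylation with the synthase Dkc1. Ribosomal RNA is the main target of both classes, and a few members serve in cutting the ribosomal RNA precursor. In mammals most snoRNAs are cut from introns of host genes that Pol II transcribes, many of which encode ribosomal proteins or other parts of the translation machinery. A mature snoRNA has no poly(A) tail and is shorter than a usual RNA-seq fragment, and the study calls its untreated and auxin libraries polyA RNA-seq. The labels name only total RNA and standard library preparation for all groups, and neither they nor the study's methods give the fragment lengths kept. A count on a member can therefore come from the mature snoRNA, its precursor or an unspliced or overlapping host transcript, and these cannot be told apart here.

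Box C/D members on which results below turn are printed first, as RNA-strand DNA letters of the GENCODE transcripts on GRCm38 (mm10). Capitals mark the box C letters TGATGA where they lie in the first 25 bases and the box D letters CTGA where they lie in the last 15 bases.
Snord104: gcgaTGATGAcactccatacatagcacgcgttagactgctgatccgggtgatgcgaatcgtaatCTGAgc
Snord49a: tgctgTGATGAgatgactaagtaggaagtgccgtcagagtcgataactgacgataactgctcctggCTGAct
Snord49b: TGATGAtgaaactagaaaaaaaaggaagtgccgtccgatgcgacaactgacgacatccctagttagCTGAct
Snord83b: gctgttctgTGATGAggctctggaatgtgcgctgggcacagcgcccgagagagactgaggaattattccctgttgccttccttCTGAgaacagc
Snord110: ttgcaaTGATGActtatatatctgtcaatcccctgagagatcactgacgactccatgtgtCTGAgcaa
Snord19: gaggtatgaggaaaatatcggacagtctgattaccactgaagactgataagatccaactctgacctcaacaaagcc
Snord53: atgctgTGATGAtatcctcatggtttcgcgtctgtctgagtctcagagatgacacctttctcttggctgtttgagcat
Snord88c: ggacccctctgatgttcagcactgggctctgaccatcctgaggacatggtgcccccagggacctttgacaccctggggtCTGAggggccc
Snord19 has neither set of letters in its windows, Snord53 has no CTGA and Snord88c no TGATGA, and the other members printed have both. Snord49a and Snord49b lie in the same host, 2410006H16Rik, and were kept as separate genes.

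The box H/ACA members follow, with the ACA letters of the last 8 bases in capitals, which is the motif that gives the class the second part of its name.
Snora24: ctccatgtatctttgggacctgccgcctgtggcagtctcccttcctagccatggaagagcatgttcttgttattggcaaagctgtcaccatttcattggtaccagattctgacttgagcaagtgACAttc
Snora31: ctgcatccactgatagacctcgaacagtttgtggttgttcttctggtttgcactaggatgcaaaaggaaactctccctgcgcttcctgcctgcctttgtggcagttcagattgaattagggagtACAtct
Snora28: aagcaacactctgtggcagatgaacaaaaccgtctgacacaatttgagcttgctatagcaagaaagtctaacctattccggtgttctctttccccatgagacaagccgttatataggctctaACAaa
Snora16a: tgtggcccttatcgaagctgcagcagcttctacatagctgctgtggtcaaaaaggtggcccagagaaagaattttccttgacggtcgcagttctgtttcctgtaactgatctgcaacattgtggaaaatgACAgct
Snora69: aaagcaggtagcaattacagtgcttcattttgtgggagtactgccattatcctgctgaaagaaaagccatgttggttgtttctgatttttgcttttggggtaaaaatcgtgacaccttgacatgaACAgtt
The ACA stood 3 bases from the end in Snora24, Snora31, Snora16a and Snora69 and 2 bases from the end in Snora28. Over all members, searched on the transcript strand, 49 of the 76 Snord genes held TGATGA in the first 25 bases (64.5%), 70 held CTGA in the last 15 bases (92.1%) and 47 held both (61.8%). None of the 38 Snora genes held TGATGA there and 2 held CTGA (5.26%), while 36 of 38 held ACA in the last 8 bases (94.7%), against 7 of 76 Snord genes (9.21%). The same end windows of 32851 RefSeq promoter sequences of 300 bases (GRCm38.p6) held TGATGA in 0.472%, CTGA in 6.80% and ACA in 7.04% of cases. The lengths also set the classes apart, with a median of 80.5 bases for Snord (64 to 238) and 132 bases for Snora (121 to 205).

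Of the 114 members, 69 had at least 1 count in the 6 libraries, 46 Snord and 23 Snora, and 45 were at 0 in all of them, 30 Snord and 15 Snora. The library totals were 14094022 to 15358714 counts, and a count of 0 allows up to 3 counts per library. All members together had 4994 counts over the 6 libraries, 49.7% of them in the 10 highest. Another 10 members never passed 3 counts, which left 59 above that floor. Whether a member was counted varied with its place in the annotation (GENCODE vM21). Of 50 members wholly inside an exon of another gene in the tables, 33 were at 0 (66.0%), against 9 of 51 members clear of any other exon (17.6%). All 5 members that overlapped only exons of genes absent from the tables were counted, with 510 counts in total, and Snora24 inside an exon of Snhg8 held 297 of these. Among 8 members partly overlapping an exon of a counted gene, 3 were at 0.

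**Figure D1:**
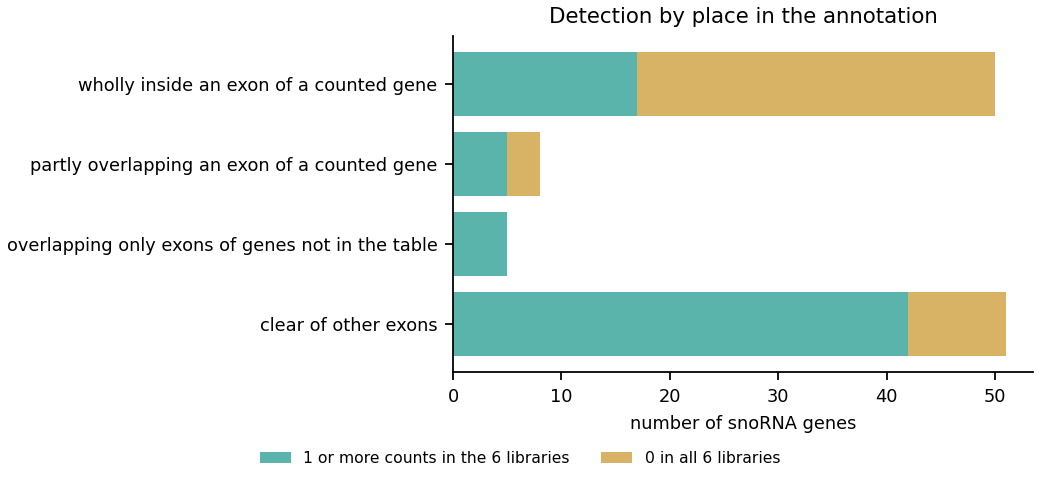
Number of snoRNA genes (x axis) by their place in the annotation (y axis), with genes that had 1 or more counts in the 6 libraries in green and genes at 0 in all 6 in brown. Of the 50 members wholly inside an exon of a counted gene 33 were at 0, and of the 51 clear of other exons 9 were at 0.

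Near-identical members made up part of the zeros. Snord116l1 and Snord116l2 had the same sequence, Snora73a and Snora73b were 96.6% identical, Snord14c and Snord14d 97.7% and Snord1b and Snord1c 97.4%, and all 8 were at 0 in every library. Of these 8, only Snord116l1 and Snord116l2 lay clear of other exons, so that for the rest identity and place cannot be told apart. Of the other close pairs, Snord14a had 74 counts while the 82.2% identical Snord14e was at 0, and Snord88c had 43 counts while the 94.4% identical Snord88a had 7. The split of reads between such pairs is uncertain. Of the members with genes of their own that were fixed for description, Snord118 and Snord13 were found by symbol, and both were near the floor. Snord118, the U8 RNA of ribosomal RNA processing, was counted 0 and 0 times in untreated, 2 and 1 times in auxin-treated and 0 and 2 times in wild-type libraries. Snord13, the U13 RNA, was counted 1 and 0, 4 and 0, and 0 and 0 times in the same order. Members of 3 hosts chosen for description were low as well. Snord47 in Gas5 and Snord22 in Snhg1, both non-coding host genes, were at 0 throughout. In Rabggtb, which encodes a subunit of the enzyme that adds geranylgeranyl lipids to Rab proteins, Snord45c had 1 and 1 counts in untreated libraries and 0 elsewhere, and Snord45b had 6 and 5, 6 and 2, and 13 and 12.

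The levels that could be read were led by a few members of each class. Per kilobase of length, the mean levels in untreated cells were highest for Snord55 with 55.2 CPM (counts scaled to a library of 1000000) per kb among the named members, followed by Snord19 with 43.7 and Snora28 with 30.8. Snord104 stood at 25.3 and Snord64 at 24.8 CPM per kb, and Snora24 at 15.2. In wild-type cells Snord104 led with 117 CPM per kb, followed by Snord49a with 61.4 and Snora24 with 58.0. With 2 libraries a group, neighbours such as Snord104 and Snord64 in untreated cells were not separated by their counts of 29 and 22 against 23 and 25.

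**Figure D2:**
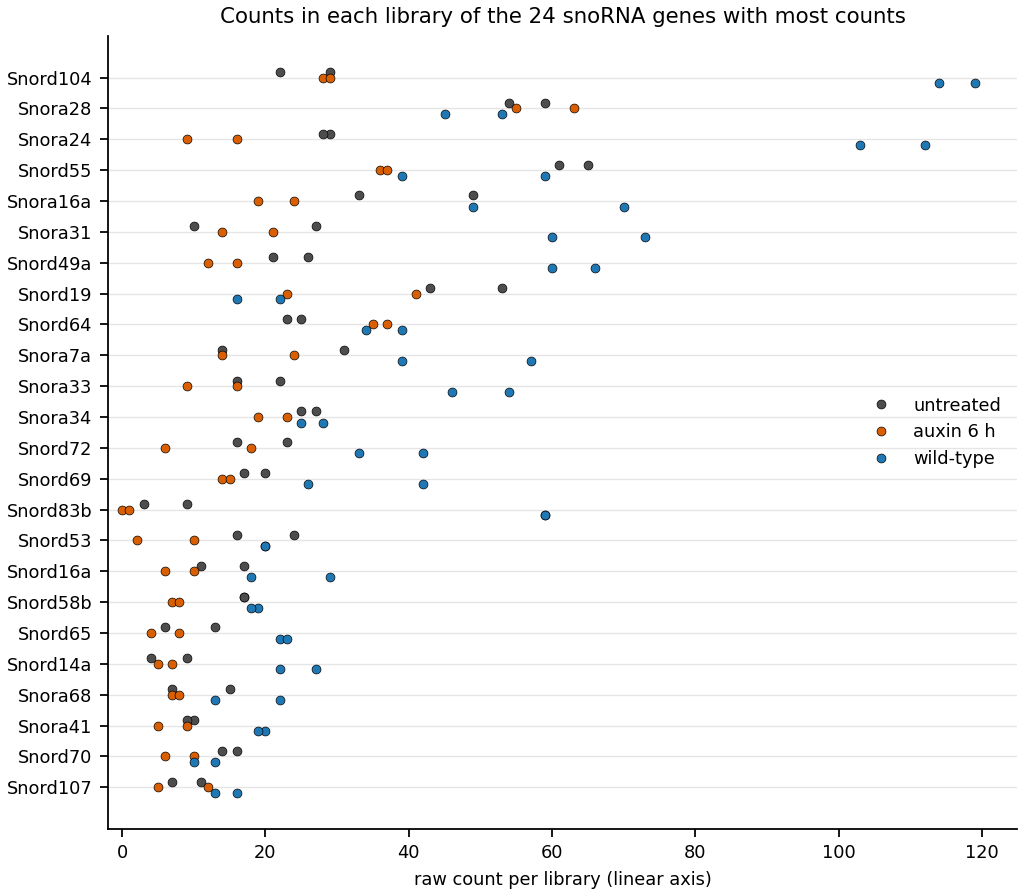
Raw count per library (x axis, linear) of the 24 snoRNA genes with the most counts over the 6 libraries (y axis), 2 points per group. Snord104, Snora24 and Snord83b have both wild-type points far to the right of the others, whereas the 3 groups of Snora28 lie between 45 and 63.

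The first comparison asked how the snoRNA counts differed after 6 h of Pol II degradation. The mRNA of the tagged subunit, Polr2a, had 6623 and 6568 counts in untreated and 10396 and 10663 in auxin-treated libraries (log2 fold change 0.57 ± 0.07 SE, adjusted p = 0.00117 by edgeR). Auxin acts on the RPB1 protein, so that this mRNA does not check the depletion. Summed over all 76 Snord genes, the level was 29.5 and 30.1 CPM in the untreated libraries and 22.5 and 17.8 CPM after auxin, a log2 ratio of -0.57 (29.8 ± 0.450 against 20.1 ± 3.34 CPM, mean ± SD, n = 2 each). The 38 Snora genes summed to 21.8 and 17.6 CPM in untreated cells and 14.8 and 14.3 CPM after auxin, a log2 ratio of -0.44 (19.7 ± 2.92 against 14.6 ± 0.332 CPM). In both classes the auxin libraries lay below the untreated ones without overlap, and the log2 ratio was below 0 under each of the 4 scalings tried. The Snora ratio shrank to -0.28 without untreated replicate 1 and to -0.22 over members clear of other exons. No p is given for these sums, and 2 against 2 libraries could not go below an exact p of 0.333.

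**Figure D3:**
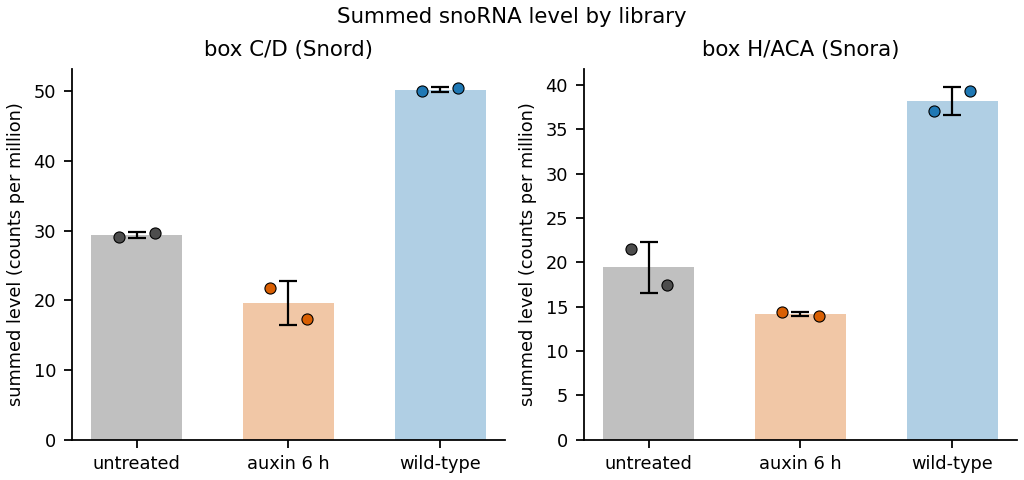
Summed level of all Snord (left) and all Snora genes (right) in CPM on a scale common to the 6 libraries (y axis), by group. Points are libraries, bars group means and error bars the SD of 2 libraries. Auxin libraries lie lowest and wild-type libraries highest in both classes, and the wild-type direction turns when libraries are scaled to mitochondrial mRNAs.

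Single members were too low for most tests. The filter on low counts kept 20 members, 13 Snord and 7 Snora, of which none was called at an adjusted p under 0.05 by edgeR's quasi-likelihood test, while 4.20% of the 16128 genes tested were called, 2.56% higher and 1.64% lower. At an unadjusted p under 0.05, 8 of the 20 were lower and none was higher, against 9.38% of all genes lower at that threshold. DESeq2 called 0 members, with 4 at an unadjusted p under 0.05. Snord55 alone was called lower with DESeq2 size factors in edgeR, and Snord55, Snord53 and Snora24 with mitochondrial scaling or with all 3 groups in the fit. Of the 20 members, 18 had a log2 fold change below 0, with a median of -0.80 for Snord and -0.41 for Snora, while 50.1% of all genes tested were below 0, with a median of 0.00. Of 3848 other genes in the members' range of mean counts (8.75 to 57.8), 36.2% were below 0, with a median of 0.16. In 13 of the 20, both auxin libraries were below both untreated libraries in CPM (9 Snord and 4 Snora), which was so for 24.8% of the genes tested. A member can pass the filter through high untreated counts alone, so these 20 do not stand for all members. Chosen instead by wild-type counts, which this comparison did not use, 30 members had at least 10 counts in both wild-type libraries, and 27 of them were below 0, 16 of 19 Snord and 11 of 11 Snora (median -0.56). Of the 14795 genes that met the same criterion, 56.8% were below 0, with a median of -0.03. This choice of members was made after the data had been seen.

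Among box C/D members, Snord55 had the smallest p. Its counts were 65 and 61 in untreated, 36 and 37 in auxin-treated and 39 and 59 in wild-type libraries, so that auxin and untreated libraries did not overlap. The log2 fold change was -0.89 ± 0.24 SE, with an adjusted p of 0.0527 in edgeR that missed the threshold. The adjusted p was 0.0369 without untreated replicate 1 and 0.0279 without untreated replicate 2, and 0.284 and 0.240 without auxin replicate 1 or 2. Snord53, chosen for mention after its value was seen, had the lowest fitted value, -1.82 ± 0.54 (adjusted p = 0.0809). It had 16 and 24 counts in untreated and 10 and 2 in auxin-treated libraries. Snord53 passed the filter on low counts through its untreated counts, which favours a lower value. It was called lower without untreated replicate 1. Its host Wdr43, a factor of ribosome biogenesis, fell by 0.27 on the log2 scale (SE 0.06, adjusted p = 0.0379). Snord49a went from 26 and 21 counts to 16 and 12 (-0.85 ± 0.36, adjusted p = 0.213), and Snord19 from 43 and 53 to 41 and 23 (-0.69 ± 0.30, adjusted p = 0.217).

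Snord64 and Snord104 did not share the lower counts. Snord64, which lies within the imprinted Snrpn locus, had 23 and 25 counts in untreated and 35 and 37 in auxin-treated libraries, with all auxin values above the untreated ones (0.48 ± 0.29, adjusted p = 0.388). Snord104, which has no annotated host, had 29 and 22 against 28 and 29 counts (0.06 ± 0.31, adjusted p = 0.943), and its groups overlapped. It lies at chr11:106500993-106501062 on the plus strand and turned to -0.12 when scaled to mitochondrial mRNAs. Snord83b, in an intron of Rpl3, was lower in both auxin libraries but too low for the test, with 9 and 3 counts in untreated and 0 and 1 in auxin-treated libraries.

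Among box H/ACA members, Snora24 at chr3:123507937-123508066, minus strand, had 29 and 28 counts without auxin and 9 and 16 with it, which gave -1.28 ± 0.37 on the log2 scale (adjusted p = 0.0729). Snora24 passed the filter on low counts through its untreated counts, which favours a lower value. Snora16a, inside an exon of the non-coding host Snhg12, had 49 and 33 against 24 and 19 counts (-1.03 ± 0.32, adjusted p = 0.0870). Neither passed the threshold, although the groups of both did not overlap, and Snora16a was called lower without untreated replicate 2 (-1.30, adjusted p = 0.0105 by edgeR). Snora28, inside an exon of Eif5, a translation initiation factor, had 54 and 59 counts in untreated, 63 and 55 in auxin-treated and 45 and 53 in wild-type libraries. Its log2 fold change was -0.04 ± 0.22 (adjusted p = 0.942), and its sign turned when single libraries were left out. Snora31 had 27 and 10 against 21 and 14 counts (-0.18 ± 0.46) and Snora7a 31 and 14 against 24 and 14 (-0.35 ± 0.43), and in both the untreated replicates differed more from each other than the groups did. Without untreated replicate 1 these became 0.70 and 0.34, neither called.

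**Figure D4:**
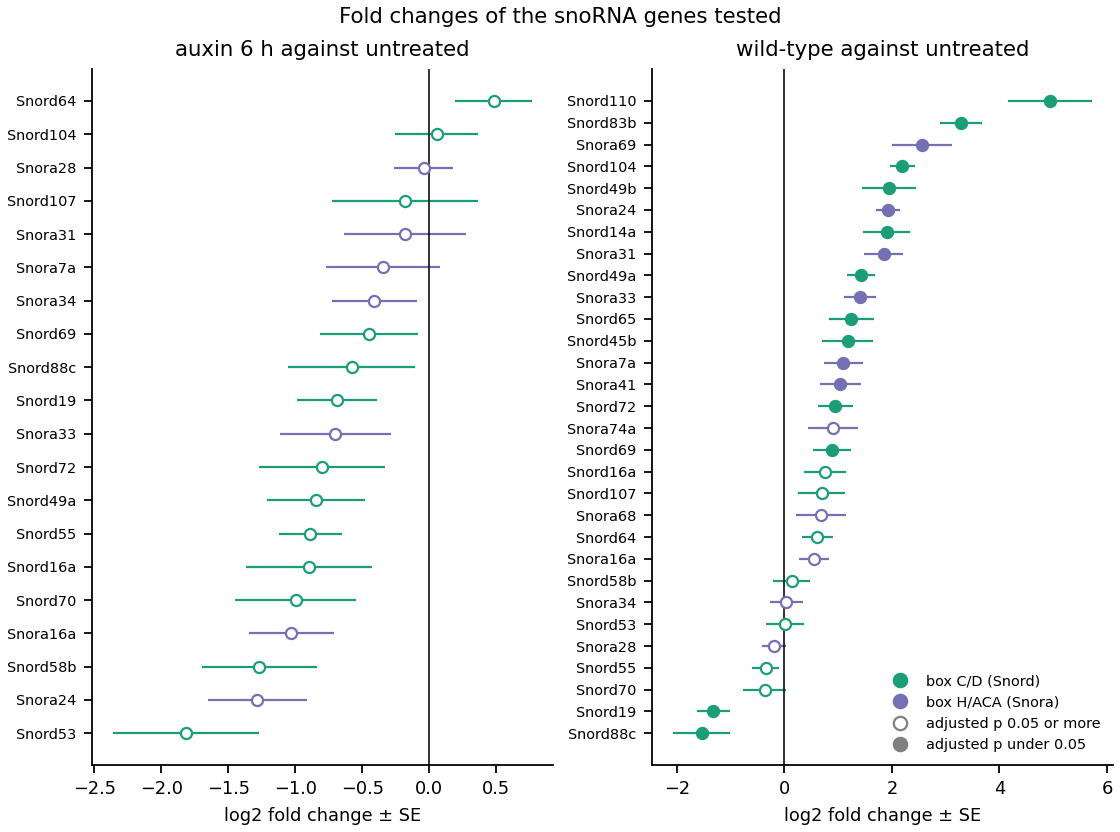
Log2 fold change ± SE (x axis) of each snoRNA gene tested, by edgeR, for auxin 6 h (left, 20 genes) and wild-type (right, 30 genes) against untreated. Filled points passed an adjusted p of 0.05. On the left 18 of 20 points lie below 0 and none is filled; on the right 16 are filled above 0 and 2 below, a direction that depends on the scaling.

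The second comparison set wild-type cells beside the untreated degron cells, to see how far the snoRNA counts of the engineered line differed from its parent before auxin. The wild-type counts are in a separate table and the records of those libraries mention retinas in the RNA extraction, so that preparation and genotype cannot be told apart. Of 10 retina markers, Crx and Rcvrn were at 0 in all 6 libraries, and all 10 summed to 9.16 and 9.85 CPM in wild-type against 6.60 to 7.62 CPM in the other libraries. The 10 pluripotency markers summed to 7656 and 7565 CPM in wild-type libraries and to 3657 to 4988 CPM in the others, and the 10 feeder fibroblast markers to 154 and 160 against 186 to 246 CPM. In untreated libraries alone the sums were 4365 and 4988 CPM and 193 and 186 CPM. Single markers went both ways against untreated. Of the 10 pluripotency markers 7 were called higher and 1 lower, and of 8 feeder markers tested 2 were called higher and 3 lower. The part of these differences in the results below was not tested. The comparison moved most genes, since 60.6% of the 15778 genes tested were called, 29.9% higher and 30.7% lower in wild-type.

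Summed snoRNA levels were higher in wild-type cells, except under scaling to mitochondrial mRNAs. The Snord genes summed to 28.7 and 29.3 CPM in untreated and 49.1 and 49.6 CPM in wild-type libraries (29.0 ± 0.433 against 49.3 ± 0.362 CPM, log2 ratio 0.77), and the Snora genes to 21.2 and 17.2 against 36.4 and 38.6 CPM (19.2 ± 2.85 against 37.5 ± 1.56 CPM, log2 ratio 0.97). Scaled to the 13 mitochondrial mRNAs, the log2 ratios turned to -1.33 and -1.14, and the median of all genes moved from -0.01 to -2.10. Of the 30 members tested, 25 were above the median of all genes, a position that a common scaling does not move. The filter on low counts bears on this position, however. All 10 members tested only in this comparison were above 0, and passing the filter through wild-type counts favours that. Of the 20 members also tested after auxin, 15 were above 0 and 5 below.

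Of 30 members tested in this comparison, 16 were called higher in wild-type (10 Snord and 6 Snora) and 2 lower, both Snord. Over all 15778 genes tested, 29.9% were called higher and 30.7% lower. The direction of the members' calls turned to 2 higher and 19 lower with mitochondrial scaling, and DESeq2 called 9 members higher and 1 lower. Without untreated replicate 2, 10 were called higher. The calls of Snord104, Snord110, Snord14a, Snord49a, Snord83b, Snora24, Snora31, Snora33, Snora69 and Snord19 held in each of the 4 fits that left out 1 library, and DESeq2 called the same 10. All values that follow are on the main scaling. The 30 members include 10 that were tested only here, and a member that passed the filter through its wild-type counts was bound to be higher. Of these 10, 8 were called higher, namely Snord110, Snord14a, Snord45b, Snord49b, Snord65, Snord83b, Snora41 and Snora69. The 20 that were also tested after auxin gave 8 higher and 2 lower. Chosen by at least 10 counts in both auxin libraries, which this comparison did not use, 11 members remained, with 5 called higher, 1 lower and 8 above 0 (median 0.62). The 15808 genes chosen in that way had a median of -0.03, and 51.7% of them were below 0. No share of calls was computed for these genes. In 22 of the 30 members tested, 14 Snord and 8 Snora, both wild-type libraries were above both untreated ones in CPM, against 40.0% of the genes tested. Genes other than members in the same range of mean counts (7 to 71) had a median log2 fold change of -0.21, and 15.2% of them were called higher.

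Snord104 gave the smallest p of the members. It had 29 and 22 counts in untreated and 114 and 119 in wild-type libraries, a log2 fold change of 2.20 ± 0.23 (adjusted p = 9.06e-06, edgeR). Snord83b rose from 9 and 3 to 59 and 59 counts (3.28 ± 0.40, adjusted p = 2.7e-05), while its host Rpl3, of the large ribosomal subunit, rose by 0.27 ± 0.07 (adjusted p = 0.00752). Snord110, in an intron of Nop56, which encodes a core protein of box C/D particles, had 0 and 1 counts in untreated, 2 and 0 in auxin-treated and 15 and 23 in wild-type libraries. The ratio of its wild-type to untreated counts per library size was 38.3, with an exact 95% counting interval of 6.47 to 1551 that covers counting error only. Nop56 was at 0.06 ± 0.06 (adjusted p = 0.360). Snord83b and Snord110 were tested only in this comparison and passed the filter through their wild-type counts, which favours higher values.

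The 3 box C/D members counted in the non-coding host 2410006H16Rik were called higher while the host fell. Of these members, Snord49b and Snord65 were tested only in this comparison and passed the filter through their wild-type counts, which favours higher values. Snord49a had 26 and 21 against 60 and 66 counts (1.43 ± 0.26, adjusted p = 0.000676), Snord49b 6 and 3 against 14 and 21 (1.94 ± 0.51, adjusted p = 0.00608) and Snord65 6 and 13 against 22 and 23 (1.24 ± 0.42, adjusted p = 0.0225). The host went from 6928 and 9762 counts to 2614 and 2572 (-1.67 ± 0.12, adjusted p = 4.75e-07). The members lie in its introns, and the wild-type libraries were highest for all 3 members and lowest for the host. Snord14a, Snord72, Snord69 and Snord45b were also called higher, with log2 fold changes of 0.89 to 1.90. Like Snord49b and Snord65, Snord14a and Snord45b were tested only in this comparison and passed the filter through their wild-type counts.

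Both members called lower in wild-type were box C/D genes. Snord19, inside an exon of Gnl3 (nucleostemin), had 43 and 53 counts in untreated, 41 and 23 in auxin-treated and 22 and 16 in wild-type libraries (-1.32 ± 0.30, adjusted p = 0.00271). Snord69 in another part of the same host was called higher, from 17 and 20 to 42 and 26 counts (0.89 ± 0.35, adjusted p = 0.0437), and Gnl3 was at -0.11 ± 0.06 (adjusted p = 0.123). Snord88c had 10 and 11 against 3 and 4 counts (-1.54 ± 0.54, adjusted p = 0.0268), and its call was lost under DESeq2, without the filter on low counts and in each fit that left out 1 library. Snord88c passed that filter through its untreated counts, which favours a lower value. Snord55, which had the most untreated counts of its class, was at -0.35 ± 0.25 (adjusted p = 0.242).

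Of the box H/ACA members, Snora24 had 29 and 28 counts in untreated and 112 and 103 in wild-type libraries (1.92 ± 0.22, adjusted p = 1.89e-05). Snora31, in an intron of Tpt1, had 27 and 10 against 73 and 60 (1.85 ± 0.36, adjusted p = 0.000981), while Tpt1 fell from 27665 and 28637 to 14023 and 14383 counts (-0.98 ± 0.06, adjusted p = 2.07e-07). Snora33 in Rps12 had 22 and 16 against 46 and 54 counts (1.40 ± 0.30, adjusted p = 0.00166), and Snora69 in Rpl39 1 and 6 against 23 and 19 (2.55 ± 0.56, adjusted p = 0.00213). Their hosts both fell, each by 0.50 on the log2 scale. Snora7a and Snora41 were called higher at 1.10 ± 0.36 and 1.04 ± 0.38. Of the members in this paragraph, Snora69 and Snora41 were tested only in this comparison. Both passed the filter through their wild-type counts, which favours higher values. Snora16a, with 49 and 70 wild-type counts, was at 0.55 ± 0.28 (adjusted p = 0.113), and Snora28 at -0.19 ± 0.23 (adjusted p = 0.485).

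The host genes were read from the same fits. The annotation named 85 hosts for 109 of the members, on the same strand, and 77 of them were in the tables by gene ID, 24 ribosomal protein genes, 14 genes without a protein and 39 others. After auxin 0 of 73 hosts tested were called higher and 10 lower, with a median of -0.05 (2.56% higher and 1.64% lower over all genes tested). None of the 24 ribosomal protein hosts was called by edgeR, or passed an unadjusted p of 0.05. The 10 became 27 without untreated replicate 1, 3 without auxin replicate 1 and 1 without auxin replicate 2. Among those called lower were Rabggtb (-0.58 ± 0.08, adjusted p = 0.00235), Eif4a2, 1810032O08Rik, Gnl3, Hspa8, Gas5, 2410002F23Rik, 1110038B12Rik and Wdr43. In 16 of 18 pairs of a tested member and its tested host, the member's log2 fold change lay below that of the host. In wild-type against untreated, 20 of 73 hosts were called higher and 35 lower on the main scaling (0 and 73 with mitochondrial scaling), against 29.9% higher and 30.7% lower over all genes tested, and of the ribosomal protein hosts 1 was higher and 20 lower (median -0.50). There the member lay above its host in 21 of 27 pairs. A member can pass the filter through high counts in 1 group alone, so these counts of pairs do not stand for all members. The wild-type pairs include members tested only in that comparison, such as Snord110 and Snord49b, which passed through their wild-type counts. No such share was computed for other genes. Across pairs, member and host values had Pearson's r of 0.18 after auxin (18 pairs, 16 hosts) and -0.15 in wild-type (27 pairs, 23 hosts), as a description only, since pairs share hosts and libraries. Members had far fewer counts than hosts, and the SE of their fold changes was wider.

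**Figure D5:**
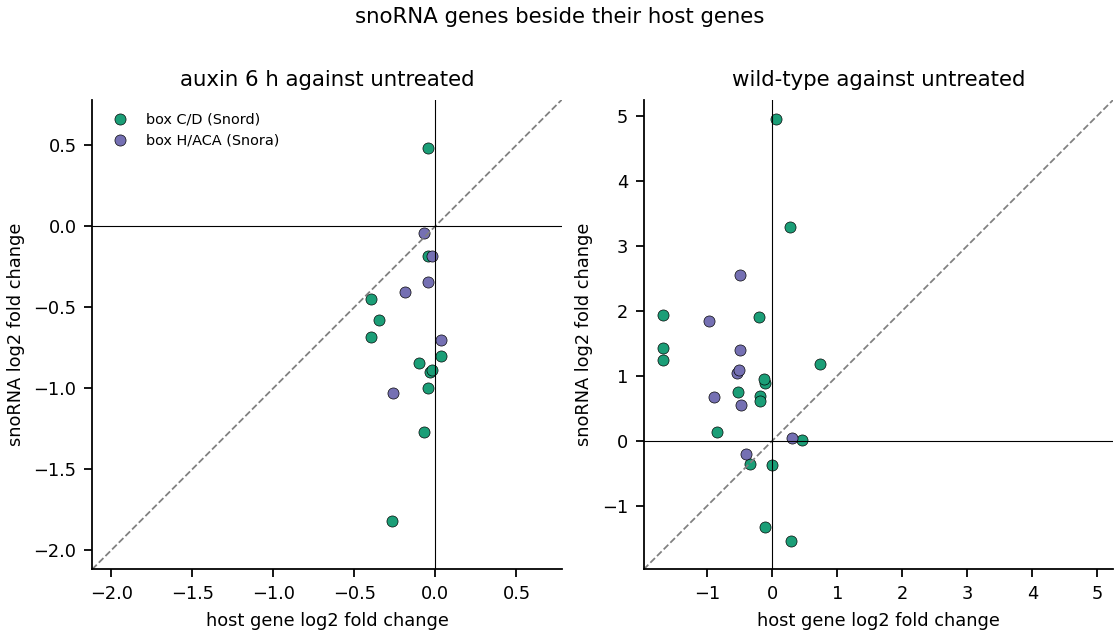
Log2 fold change of each tested snoRNA gene (y axis) against that of its host gene (x axis), for auxin 6 h (left, 18 pairs) and wild-type (right, 27 pairs) against untreated, with the dashed line marking equal values. Points lie below the line in 16 of 18 pairs on the left and above it in 21 of 27 pairs on the right; the scaling moves both axes, and the wild-type directions depend on it.

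The protein partners of the snoRNAs were described from fixed lists. Over all genes tested, 4.20% were called after auxin and 60.6% in wild-type, 29.9% higher and 30.7% lower. After auxin none of the 8 core proteins was called. These are Fbl, Nop56, Nop58 and Nhp2l1 of the box C/D particle and Dkc1, Nhp2, Nop10 and Gar1 of the box H/ACA particle, with log2 fold changes between -0.15 and 0.06. Of 18 assembly and maturation factors 1 was called lower, Nufip1 (-0.31 ± 0.08, adjusted p = 0.0448), which tethers core proteins during particle assembly. In wild-type cells, on the main scaling, Fbl (0.57 ± 0.08) and Nhp2l1 (0.27 ± 0.06) of the 4 box C/D proteins and Dkc1 (1.01 ± 0.08), Gar1 (0.66 ± 0.07) and Nop10 (0.65 ± 0.07) of the 4 box H/ACA proteins were called higher, and Nhp2 lower (-0.61 ± 0.08). Of the 18 assembly and maturation factors 11 were called higher and 4 lower, among them the box C/D assembly factor Znhit6 (1.10 ± 0.08) and the co-chaperone Pih1d1 (-0.43 ± 0.08).

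Other short or non-coding RNAs were measured in the same way. The fits called 2.56% of all genes tested higher and 1.64% lower after auxin, and 29.9% higher and 30.7% lower in wild-type. The 9 small Cajal body RNA genes (Scarna) were too low to be tested, at 0.767 to 2.51 CPM in sum. Of 1338 snoRNA genes with predicted (Gm) names, 35 were tested after auxin, 33 of them below 0 and 2 called lower, and 46 in wild-type, 18 called higher and 4 lower. Of 646 microRNA genes 17 were tested after auxin, 15 below 0 and 5 called lower, and in wild-type 3 of 18 were called higher and 9 lower. Over all genes tested, 50.1% were below 0 after auxin. As with the members, a gene of these sets can pass the filter through high counts in 1 group alone. The genes tested therefore do not stand for their sets. Of 9 genes tested among the Snhg genes, Gas5 and Rian, all non-coding and most of them snoRNA hosts, Gas5, Snhg5 and Snhg7 were called lower after auxin (-0.36 ± 0.07, -0.37 ± 0.09 and -0.50 ± 0.10), and 7 were called lower in wild-type. Of the 9 RNAs listed that usually have no poly(A) tail, the 3 tested after auxin were above 0. Among these, Rpph1 passed the filter through its auxin counts of 21 and 23, against 12 and 9 in untreated libraries. Terc, the telomerase RNA, had 19 and 13 counts in untreated and 59 and 55 in auxin-treated libraries (1.72 ± 0.30, adjusted p = 0.00776), and Rn7sk and Rpph1, both made by RNA polymerase III, were at 0.92 ± 0.33 and 0.96 ± 0.39 without a call. In wild-type Rn7sk was called lower (-2.10 ± 0.51) and Rpph1 higher (1.16 ± 0.45), and each passed the filter there through the group in which it was higher. Of 5 nuclear retained RNAs none was called after auxin, and in wild-type 4 were called lower, Neat1 with the smallest p (-3.43 ± 0.07), and Tug1 higher (0.27 ± 0.07).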

How the data were processed

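Total RNA was extracted with TRIzol, and 6 mESC libraries, called polyA RNA-seq by the study for the untreated and auxin groups, were sequenced as paired 150 bp reads. The authors aligned the reads to mm10 with HISAT2 2.1.0 and counted them per GENCODE gene with Salmon and HTSeq. The deposited values are raw counts per gene. The annotation release and the strand setting are not given in the sources used here. The 2 tables also hold the authors' DESeq2 comparisons (fold changes and p-values), which were not used, and 2 count columns that match no sample, which were left out.

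Counts of both tables were joined by gene ID. Each comparison was fitted on its 4 libraries and all genes with edgeR 4.0.16 in R 4.3.3, using TMM scaling, filterByExpr with a minimum count of 10, the quasi-likelihood test and Benjamini-Hochberg adjustment, and a call was an adjusted p under 0.05. The SE is the log2 fold change divided by the root of the F statistic. DESeq2 1.42.0, other scalings, no filter, all 3 groups in 1 fit, the replicate number as a block and each library left out were the alternatives. Fits were tested on simulated data. CPM are counts scaled to 1000000 per TMM-adjusted library. Depth was 14094022 to 15358714 counts per library, and intervals and floors cover counting error only.

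Positions, hosts and sequences came from GENCODE vM21 (GRCm38), which held 37607 of the 39017 gene IDs, so that places in the authors' release may differ. A host holds the member on the same strand. Hosts are named by the symbols of the tables, in which Snhg1 and Dancr stand under other IDs. Named members were those called (up to 8 per class and direction), the 5 per class with the highest mean CPM, members of Gas5, Snhg1 and Rabggtb, and Snord118 and Snord13. The members and lists were chosen with earlier results of these data known. Tent4b was read as Papd5 and Snu13 as Nhp2l1. Some items are not reported here.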

Additional observations from a re-analysis of the deposited data

How the results depend on the processing

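Low counts set the limits: with 2 libraries a group, SEs of the members tested were 0.22 to 0.78 on the log2 scale, and a p that missed the threshold does not show equal levels.

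After auxin, the summed Snord log2 ratio ran from -0.75 to -0.41 and the summed Snora log2 ratio from -0.58 to -0.28 with single libraries left out. The Snora ratio was -0.62 with mitochondrial scaling and -0.22 over members clear of other exons. Members called lower numbered 0 to 2 with single libraries left out, 1 with DESeq2 size factors, 3 with mitochondrial scaling and 3 with all groups in the fit. Hosts called lower were 3 with mitochondrial scaling, 1 without the filter and 1 to 27 with single libraries left out, and hosts called higher 0 to 2 in the latter. Of members not called, Snord104 turned to -0.12 with mitochondrial scaling and ran from -0.14 to 0.27 with single libraries left out, where Snora28 ran from -0.13 to 0.035, Snora31 from -0.74 to 0.70 and Snora7a from -0.82 to 0.34. Over all genes, 413 were called higher and 264 lower as reported, 128 and 108 by DESeq2, 43 and 12 without the filter, 567 and 668 with all groups, 167 and 52 with mitochondrial scaling, and 142 to 1394 and 35 to 1330 with single libraries left out.

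In wild-type against untreated, mitochondrial scaling moved the median of all genes to -2.10 and turned the summed log2 ratios to -1.33 (Snord) and -1.14 (Snora). It left 2 members higher and 19 lower, 0 hosts higher and 73 lower, and 73 genes higher and 15235 lower of all tested. With it, Snora16a stood at -1.55, Snora24 at -0.17, Snora31 at -0.25, Snora33 at -0.69, Snora41 at -1.03, Snora7a at -1.002, Snord14a at -0.15, Snord49a at -0.66, Snord49b at -0.12, Snord64 at -1.47, Snord65 at -0.82 and Snord72 at -1.14. The summed Snord log2 ratio was 0.71 with library totals, 0.60 without Snord104 and 0.90 over members clear of other exons. The Snora ratio was 0.80 without Snora24, 1.42 over members clear of other exons and 0.82 to 1.13 with single libraries left out. DESeq2 called 9 members higher and 1 lower, and without the filter 1 was lower. Members clear of other exons gave 10 higher and 1 lower. With single libraries left out, 10 to 15 members were higher and 1 was lower each time, and 13 to 23 hosts were higher.

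The replicate numbers showed no pairing of the libraries (correlation of deviations 0.05 for auxin and -0.03 for wild-type). With 2 libraries a group this cannot exclude a pairing. The fit with the replicate block called 4 members lower (Snora16a, Snora24, Snord53 and Snord55) and 1 host higher after auxin (1081 genes higher and 849 lower in all), and 15 members higher and 2 lower in wild-type. The causes of these differences were not tested, apart from members or libraries left out by construction.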
